A study of Mus musculus with 4 samples.

Results

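The proteasome genes are those that encode the subunits, activators and assembly chaperones of the proteasome, the protease that degrades most short-lived and misfolded proteins of the cell. Members were all probe sets of the array whose single gene symbol began with Psma to Psmg followed by a digit. This gave 58 probe sets for 46 genes, of 12488 probe sets and 8251 named genes in all. The rule used names only and no measured value. Psmc3ip and Psme3ip1 match by name but encode proteins that bind a subunit, so they were described apart and the counts below cover the other 44 genes. Of these, 41 had a mean intensity above 100.8, the floor below which values were taken as bounds, and 40 were above it on all 4 arrays.

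The samples were total RNA from the CA1 region of the hippocampus of young male C57BL/6J mice, read on 4 arrays. All mice received 3 foot shocks of 0.5 mA and 1 s each, after having been placed in the context 2 h earlier, a condition labelled shock alone. RNA was collected at 1 of 4 times, which were 1, 2, 4 and 6 h from the last shock, with 1 array for each time. After the shocks the animals stayed in the training chamber for 1 h. The number of animals behind a sample is not stated in the labels, and animals without shock were not analysed here, so the other times are the only reference for a value. With no replicates no test was made and no error can be given for a single value, and precision is limited by having 1 array a time. Runs of 4 values below are intensities in the order 1, 2, 4 and 6 h. The values of all genes on the same arrays serve as the comparison throughout.

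The proteasome is a barrel, the 20S core, closed at its ends by caps. The outer rings of the core are alpha subunits, which gate the entry, and the inner rings are beta subunits, of which Psmb5, Psmb6 and Psmb7 carry the proteolytic sites. The 19S cap binds ubiquitin-tagged proteins, removes the tag and unfolds them with a ring of ATPases, and core and cap together form the 26S proteasome. Interferon induces the replacement subunits Psmb8, Psmb9 and Psmb10 and the activators Psme1 and Psme2, which favour peptides for antigen presentation. In neurons the proteasome takes part in the turnover of synaptic proteins, and its inhibition in the hippocampus impairs the formation of long-term memory in rodents.

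Proteasome genes differed less between the arrays than genes did in general, and they were most often highest at 4 h. The ratio of the highest to the lowest of the 4 values had a median of 1.22 over the 41 genes, against 1.35 over all 5670 genes above the floor. It reached 1.2 in 21 of 41 proteasome genes, against 75.6% of all genes, and 1.5 in 6 of 41, against 32.4%. By its brightest probe set no proteasome gene reached 2.0, as did 9.56% of all genes. The second, dimmer probe set of Psmg3 ranged 2.11-fold. Proteasome genes were also brighter, with a median intensity of 1504 against 496 for all genes. Among genes with a mean intensity of at least 500 the median ratio was 1.18 over 34 proteasome genes and 1.24 over 2820 genes in all, and the proteasome genes were still the brighter, at a median of 1715 against 1120.

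At 4 h, 30 of the 41 genes lay above the mean of their other 3 values, against 49.3% of all genes. In all, 21 of 41 were highest at 4 h, against 22.5% of all genes. A further 9 were highest at 1 h, 5 at 2 h and 6 at 6 h, against 25%, 29.2% and 23.2% of all genes. The median log2 difference at 4 h from the other times was 0.10, and the middle of the distribution, from the 25th to the 75th percentile, ran from -0.01 to 0.18. The median over all genes was 0.00, with the corresponding range from -0.17 to 0.15.

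**Figure D1:**
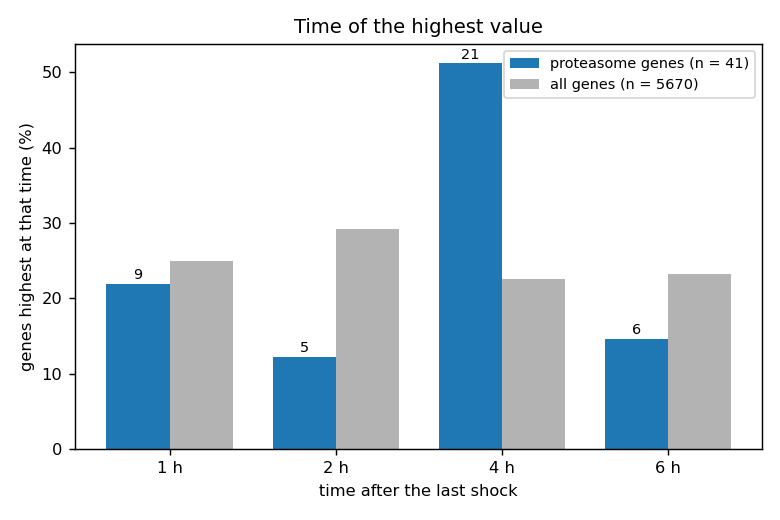
Share of genes, in percent, whose highest value fell at each time after the last shock, for the 41 proteasome genes (blue, with their number above the bar) and all 5670 genes above the floor (grey). The blue bar at 4 h stands for 21 of 41 genes, against 22.5% of all genes.

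The medians for the 1, 2 and 6 h arrays lay on the opposite side, at -0.04, -0.05 and -0.04. Between pairs of arrays, 4 h exceeded 1 h for 28 of 41 members (48.3% of all genes; median 0.10) and 2 h for 29 (47.7%; median 0.12). From 4 h to 6 h, 31 of 41 were lower (50.2%; median -0.12). Between 1 h, 2 h and 6 h the members were nearly level, with 20 of 41 higher at 2 h than at 1 h (49.8%) and 20 higher at 6 h than at 1 h (46.9%), at medians of 0.00. The 6 h values depended on the scaling. With arrays brought to a common median, the 6 h median against the other times was 0.031 and that against 1 h was 0.083, with 28 of 41 members above 1 h and 58.6% of all genes. That scaling also put 31 members above 1 h and 34 above 2 h at 4 h, while the shares of all genes became 56.4% and 60.5%. These comparisons share arrays and are not independent of each other. Over the same genes of at least 500 intensity units the median at 4 h was 0.10 for the 34 proteasome genes and 0.01 for the 2820 genes in all.

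Markers of CA1 pyramidal neurons differed between the arrays as well. Their summed intensity over the 7 markers on the array was 7738, 8413, 9936 and 9371, with both later arrays above both earlier ones and the highest sum at 4 h. Wfs1 read 1709, 1637, 2609 and 2205, and Neurod6 read 768, 648, 1264 and 1089, both highest at 4 h, while Nrgn, the brightest, read 3619, 4399, 4522 and 4780, highest at 6 h, and Neurod2 was lower at 4 h, at 1324, than at 2 h, at 1491. These 4 had a mean above the floor. The others of the 7, Camk2a, Grin2a and Grin2b, had a mean below it and were each above it on 1 array only. The median log2 difference of the 4 was 0.30 at 4 h and 0.19 at 6 h, where that of the proteasome genes was -0.04. Summed markers of oligodendrocytes (6 on the array, 1 of them below the floor throughout) and blood (2) were also highest at 4 h, at 23403 against 21389 to 22612 and at 3754 against 2954 to 3478. By gene, however, 3 of the 5 oligodendrocyte markers above the floor were highest at 6 h (23.2% of all genes). Their median was 0.08 at 4 h and 0.18 at 6 h. The blood sum was mostly Hba-a1, as Alas2 was above the floor at 1 h only. Summed markers of astrocytes (7), at 20881 against 21404 to 23432, and of microglia and leukocytes (13, of which 3 were below the floor throughout), at 10251 against 10353 to 10930, were lowest at 4 h. By gene, 2 of the 7 astrocyte markers and 2 of the 9 microglial ones with a mean above the floor were lowest then (22.8% of all genes). Their medians were -0.06 and -0.02 at 4 h, and -0.06 and -0.03 at 6 h. Endothelial markers (7, with 1 below the floor throughout) summed to 2028, 1626, 1780 and 1465, and choroid plexus markers (5, with 1 below) to 1663, 1239, 1831 and 7649. The part of these differences in the result was not tested, and in tissue RNA fewer cells of a type and less RNA per cell cannot be told apart.

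**Figure D2:**
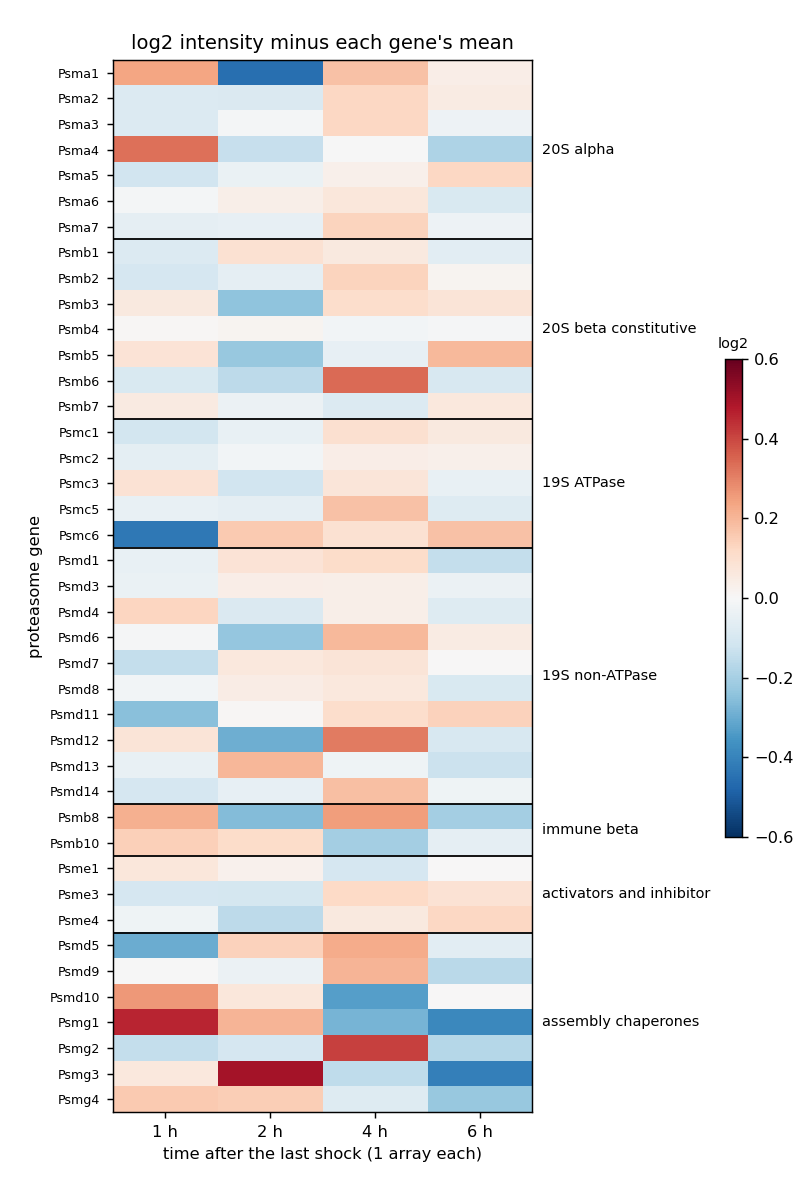
Log2 intensity of the 41 proteasome genes above the floor (rows, by class) on the 4 arrays (columns, hours after the last shock), minus each gene's mean over the arrays, with red above and blue below that mean. The 4 h column is red for 30 genes, and the assembly chaperones at the foot show the deepest colours, with Psmg3 ranging 1.88-fold.

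The constitutive 26S subunits were the members most often higher at 4 h. Of their 31 genes on the array 29 were above the floor, and 24 of these 29 exceeded the mean of the other times at 4 h (49.3% of all genes; median difference 0.12), and 16 were highest then (22.5%). The 19S cap was the most uniform, with 14 of 15 genes above and none lowest at 4 h (22.8% of all genes were lowest then). In the 20S core 10 of 14 were above. By class the medians at 4 h were 0.16 for alpha subunits, 0.08 for constitutive beta subunits, 0.12 for ATPases and 0.12 for the other cap subunits. The activators lay at 0.08, the 2 measured interferon-inducible beta subunits at 0.03 and the assembly chaperones at -0.10. Single arrays moved several of these: the constitutive beta median was 0.038 without the 2 h array and 0.043 without the 1 h array, and the activators stood at 0.012 without the 2 h array and 0.15 without the 6 h array. The interferon-inducible median was 0.13 without the 1 h array and -0.027 without the 6 h array. That of the chaperones was 0.022 without the 2 h array, -0.034 without the 1 h array and -0.23 without the 6 h array. The classes are small and share arrays, so their medians are descriptions and the differences between classes were not tested.

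**Figure D3:**
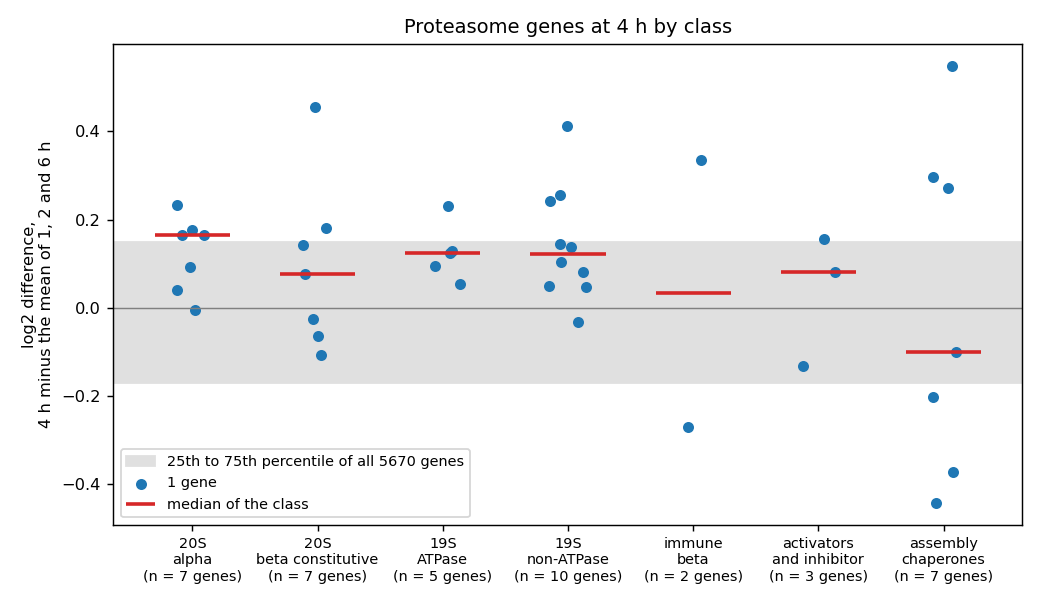
Log2 difference at 4 h from the mean of 1, 2 and 6 h for each proteasome gene above the floor (blue points), by class, with the class median (red line) and the range from the 25th to the 75th percentile of all genes (grey band, -0.17 to 0.15). Points of the 19S classes lie above 0 for 14 of 15 genes, while the 7 assembly chaperones spread from -0.44 to 0.55.

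Of the 44 genes, 37 had a promoter window in the RefSeq table of build GRCm38.p6, and the 250 bases before the annotated start were searched on both strands for 5 motifs. These were CCAAT, the binding motif of the factor NF-Y, TGACNNNGC, the core of the antioxidant response element read by the factors Nfe2l1 and Nfe2l2, GGGCGG, the GC box, TTCNNNGAA, the site of interferon-activated STAT factors and the interferon-stimulated response element. The following sequences are printed 5′ to 3′ on the strand of the gene, with every match in capitals, for genes on which the results turn. They are 3 constitutive subunits that were highest at 4 h, 1 assembly chaperone that was lower at each later time, and 1 interferon-inducible subunit.
Psmb6, chr11:70525107-70525356, plus strand: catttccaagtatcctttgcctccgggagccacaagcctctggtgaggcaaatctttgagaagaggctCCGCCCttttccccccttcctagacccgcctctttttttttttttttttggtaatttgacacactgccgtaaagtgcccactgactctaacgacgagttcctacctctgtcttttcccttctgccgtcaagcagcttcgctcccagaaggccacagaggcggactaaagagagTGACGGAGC
Psmd12, chr11:107479278-107479527, plus strand: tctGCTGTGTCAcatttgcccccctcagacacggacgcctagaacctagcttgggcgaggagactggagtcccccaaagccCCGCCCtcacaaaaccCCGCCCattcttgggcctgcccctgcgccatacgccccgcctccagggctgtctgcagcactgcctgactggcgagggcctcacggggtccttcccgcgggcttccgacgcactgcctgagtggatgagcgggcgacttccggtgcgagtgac
Psmd14, chr2:61711444-61711693, plus strand: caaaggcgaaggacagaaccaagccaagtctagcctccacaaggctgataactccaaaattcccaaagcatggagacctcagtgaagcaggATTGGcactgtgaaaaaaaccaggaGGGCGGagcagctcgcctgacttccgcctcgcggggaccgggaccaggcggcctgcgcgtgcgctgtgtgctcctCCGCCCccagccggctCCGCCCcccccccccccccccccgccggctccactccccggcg
Psmg1, chr16:95990961-95991210, minus strand: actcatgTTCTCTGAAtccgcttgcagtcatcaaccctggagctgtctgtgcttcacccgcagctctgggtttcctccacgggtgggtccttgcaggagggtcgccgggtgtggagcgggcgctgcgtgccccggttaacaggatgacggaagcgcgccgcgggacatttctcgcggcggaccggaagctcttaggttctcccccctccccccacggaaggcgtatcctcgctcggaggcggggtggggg
Psmb8, chr17:34197945-34198194, plus strand: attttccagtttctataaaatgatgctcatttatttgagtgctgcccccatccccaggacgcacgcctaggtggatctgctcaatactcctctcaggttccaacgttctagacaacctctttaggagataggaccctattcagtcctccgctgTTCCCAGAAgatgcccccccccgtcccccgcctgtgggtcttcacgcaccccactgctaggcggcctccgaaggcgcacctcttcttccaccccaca

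The window of Psmb6 held TGACNNNGC with its first base 9 bases before the start, and 1 GC box. Psmd12 held the same core 247 bases before the start, on the opposite strand, with 2 GC boxes. Psmd14 held 1 CCAAT box on the opposite strand, 159 bases before the start, and 3 GC boxes. Psmg1 and Psmb8 held neither CCAAT, nor GGGCGG, nor TGACNNNGC, and each held 1 match to TTCNNNGAA, at 243 and 97 bases before the start.

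Over the 37 proteasome genes CCAAT, TGACNNNGC and GGGCGG were about as common as in promoters of genes measured on the array. CCAAT was in 13 of 37 windows (35.14%), against 34.46% of 27025 promoters in the table and 35.88% of the 4568 that belong to genes measured on the array. TGACNNNGC was in 5 windows (13.51%), those of Psmb5, Psmb6, Psmc6, Psmd12 and Psmd9, against 10.15% and 11.62%. GGGCGG was in 21 windows (56.76%), against 32.94% of all and 60.77% of genes on the array. TTCNNNGAA was in 2 windows (5.405%), against 7.179% of all and 5.517% of genes on the array. The interferon-stimulated response element was in 3 (8.108%), those of Psmb3, Psmd4 and Psmd9, against 3.038% and 2.299%. A match is a run of letters and not evidence of binding.

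Among the alpha subunits, which form the gated outer rings, 6 of 7 lay above the other times at 4 h (49.3% of all genes). Psma1 and Psma4 had the widest ranges of the class. Psma1 read 559, 346, 534 and 487, a low value at 2 h only, 1.41-fold under the next. With Psmb3 it was 1 of 2 members at least 1.2-fold below every other time at 2 h, against 6.32% of all genes. Psma4 read 3510, 2541, 2787 and 2458, high at 1 h by 1.26-fold over the next, the only member so far above at 1 h (4.62% of all genes were at least 1.2-fold above), and it alone of the class was not above the other times at 4 h, at -0.01. The remaining 5, Psma2, Psma3, Psma5, Psma6 and Psma7, stayed within 1.12-fold to 1.18-fold over the 4 arrays. Psma7, a member chosen after its values were seen, read 3615, 3622, 4106 and 3665, nearly equal at 3 times and 1.12-fold above the next value at 4 h. Psma5 differed in that it was higher at each later time, at 1807, 1905, 1998 and 2130.

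Among the beta subunits the proteolytic ones did not move together. Psmb6, which carries the caspase-like site, read 1593, 1525, 2152 and 1591. The 4 h value stood at least 1.35-fold above each of the others, which lay within 1.04-fold of each other. Psmb6 and the chaperone Psmg2 were the 2 of 40 genes that stood at least 1.2-fold above every other time at 4 h, against 2.97% of all 5017 genes above the floor on all arrays. Psmb5, with the chymotrypsin-like site, read 1763, 1422, 1613 and 1911, lowest at 2 h and highest at 6 h. Its second probe set read 259, 421, 310 and 244, in the opposite order, so the 2 probe sets of Psmb5 disagree and its course is uncertain. Psmb7, with the trypsin-like site, read 1561, 1464, 1421 and 1568, lowest at 4 h with little range.

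Among the structural beta subunits, Psmb4 read 3662, 3688, 3596 and 3622, the narrowest range of all members above the floor, at 1.03-fold. Its 2 other probe sets were below the floor on all arrays or on 3 of 4. Psmb1 read 4663, 5270, 5142 and 4723, whereas the other probe set above the floor read 1722, 1432, 1700 and 1803, low at 2 h where the main one was highest, and the last was below the floor throughout. Psmb2 and Psmb3 were both highest at 4 h, with ranges of 1.18-fold and 1.27-fold. Psmb3 read 2534, 2055, 2619 and 2569, so its range came from the low value at 2 h. On the 2 h array the 3′ to 5′ ratio of the actin control probe sets was also the highest, at 2.70 against 1.74 to 1.84 on the other arrays, and that of Gapdh was 4.82 against 3.24 to 3.98. The part of this ratio in the values at 2 h was not tested.

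The ATPases, the ring that unfolds substrates, were all above the other times at 4 h, 5 of 5 (49.3% of all genes). Psmc6 had the widest range, at 2755, 4128, 3952 and 4191. It was 1.43-fold lower at 1 h than at the next lowest time, while the other 3 values lay close together, and it was the only proteasome gene at least 1.2-fold below every other time at 1 h, against 4.35% of all genes. Psmc5 read 962, 956, 1119 and 940, with the 4 h value 1.16-fold above the next. Psmc3 read 1641, 1427, 1623 and 1499, and of its 2 dimmer probe sets one was highest at 4 h, at 525 against 459 to 497, and the other declined from 453 at 1 h to 426 at 6 h. Psmc1 and Psmc2 were both highest at 4 h and lowest at 1 h, within 1.16-fold and 1.07-fold. Psmc4 was below the floor on all 4 arrays, from 31.8 to 57.7, so nothing can be said of its course.

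In the rest of the 19S cap, 9 of 10 genes lay above the other times at 4 h (49.3% of all genes), and 6 were highest then (22.5%). Psmd12, a subunit of the lid, read 651, 502, 763 and 577, lowest at 2 h and 1.17-fold above the next value at 4 h. Its only probe set has a name ending in _f_at and was left out where plain probe sets alone were used. Psmd6, also of the lid, read 2043, 1747, 2349 and 2128, with the same lowest and highest times. Psmd14, the deubiquitinase that removes the ubiquitin chain, was chosen after its values were seen and read 1243, 1287, 1512 and 1308, 1.16-fold above the next value at 4 h. These 3 subunits were thus each highest on the 4 h array and lower on the 6 h array. Psmd6 and Psmd14 were still above both earlier times at 6 h, while Psmd12, at 577, was below its 1 h value of 651.

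Psmd11, a lid subunit, read 1816, 2174, 2323 and 2383, higher at each later time. Its other probe sets, at 631, 643, 691 and 669 and at 212, 238, 301 and 172, were both highest at 4 h, so all 3 exceeded their 1 h value at 4 h but differed at 6 h. Psmd13 was the exception at 4 h, at 616, 729, 625 and 581 and highest at 2 h. The ubiquitin receptor Psmd4 was highest at 1 h, at 2212 against 1900 to 2072. Psmd1, Psmd3, Psmd7 and Psmd8 ranged only 1.06-fold to 1.19-fold. Psmd2, a scaffold of the base, read from 18.9 to 84.4 and was below the floor on all arrays.

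The interferon-inducible subunits were not uniformly higher at 4 h. Psmb10, the counterpart of Psmb7, was the only well measured one, at 1262, 1233, 992 and 1099. It was lowest at 4 h, 1.11-fold below the next value and 1.27-fold below 1 h. Psmb8, the counterpart of Psmb5, was dim, at 140, 87.7, 144 and 105, and on the 2 h array it was below the floor. It was at least 1.43-fold higher at 4 h than at 2 h. Psmb9, the counterpart of Psmb6, was below the floor on all 4 arrays, from 16.5 to 37.2. Psme1, a subunit of the interferon-inducible activator, read 444, 431, 395 and 425, lowest at 4 h as Psmb10 was. Its partner Psme2 shares its 2 probe sets with Psme2b and is not reported.

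Activators that interferon does not induce were higher at the later times. Psme3, the nuclear activator, read 1323, 1316, 1537 and 1507, with 4 h and 6 h above both earlier times. Psme4, an activator linked to the degradation of histones, read 195, 178, 207 and 217, also with both later times above both earlier ones. Psme3ip1, which encodes a partner of Psme3 and lies outside the counts, read 709, 708, 927 and 830, with the same order of early and late times. In all, 12 of 41 proteasome genes had both 4 h and 6 h above both 1 h and 2 h, against 17.8% of all genes, and 7 of 41 had both below, against 21.1%. Scaling to a common median made these 20 and 4 members, against 28.6% and 12.8% of all genes. The 12 were Psma2, Psma5, Psma7, Psmb2, Psmb3, Psmc1, Psmc2, Psmd6, Psmd11, Psmd14, Psme3 and Psme4, and the 7 were Psmb4, Psmb10, Psme1, Psmd10, Psmg1, Psmg3 and Psmg4. Psmc3ip, which acts in meiotic recombination, was below the floor on all arrays.

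Assembly chaperones, which build the complex and do not remain in it, included the members with the widest ranges, Psmg3 and Psmg1, and most were lower at 6 h. All 7 were lower at 6 h than at 2 h, against 51.6% of all genes (median -0.20), and 5 of 7 were lowest at 6 h, against 25% of all genes. With a common median 5 of 7 were lower at 6 h than at 2 h, at a median of -0.082 and against 38.2% of all genes, and after quantile normalization also 5, at -0.25 and against 49.6%. The 5 were Psmg1, Psmg3, Psmg4, Psmd5 and Psmd9 under both, whereas Psmg2 and Psmd10 no longer counted. The number lowest at 6 h became 4 of 7 under both, without Psmg2. The shares of all genes were then 17.4% with a common median and 23.2% after quantile normalization. Psmg1 read 679, 570, 407 and 378, lower at each later time and 1.79-fold lower at 6 h than at 1 h. Psmg2, with which it pairs to build the alpha ring, read 174, 179, 255 and 171, equal within 1.05-fold at 3 times and 1.43-fold higher at 4 h. The 2 partners therefore had unlike courses.

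Psmg3 read 516, 700, 445 and 372, highest at 2 h by 1.36-fold over the next, alone among the members (6.1% of all genes were at least 1.2-fold above at 2 h). Its second probe set read 264, 279, 132 and 226, also highest at 2 h but lowest at 4 h. Psmg4, its partner, read 569, 564, 484 and 435, with both later times below both earlier ones. Psmg1, Psmg3 and Psmg4 were thus each lower at 4 h and 6 h than at 1 h and 2 h, and also with the deposited values, a common median and quantile normalization.

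Of the chaperones of the cap's base, Psmd10, also named gankyrin, read 211, 184, 140 and 176. It was lowest at 4 h, 1.26-fold under the next, the only member at least 1.2-fold below every other time at 4 h (4.76% of all genes). Psmd5 read 1384, 1867, 1982 and 1626, with the lowest value at 1 h and the highest at 4 h. Psmd9 read 370, 362, 427 and 331, highest at 4 h. Psmd5, Psmd9 and Psmg2, 3 of 7 chaperones, had their highest value at 4 h, as did 9 of 15 cap subunits (22.5% of all genes). Another 3 of the 7 chaperones were highest at 1 h (25% of all genes). Psmd5, Psmd9, Psmg2 and Psmg4 were chosen for description after their values were seen.

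**Figure D4:**
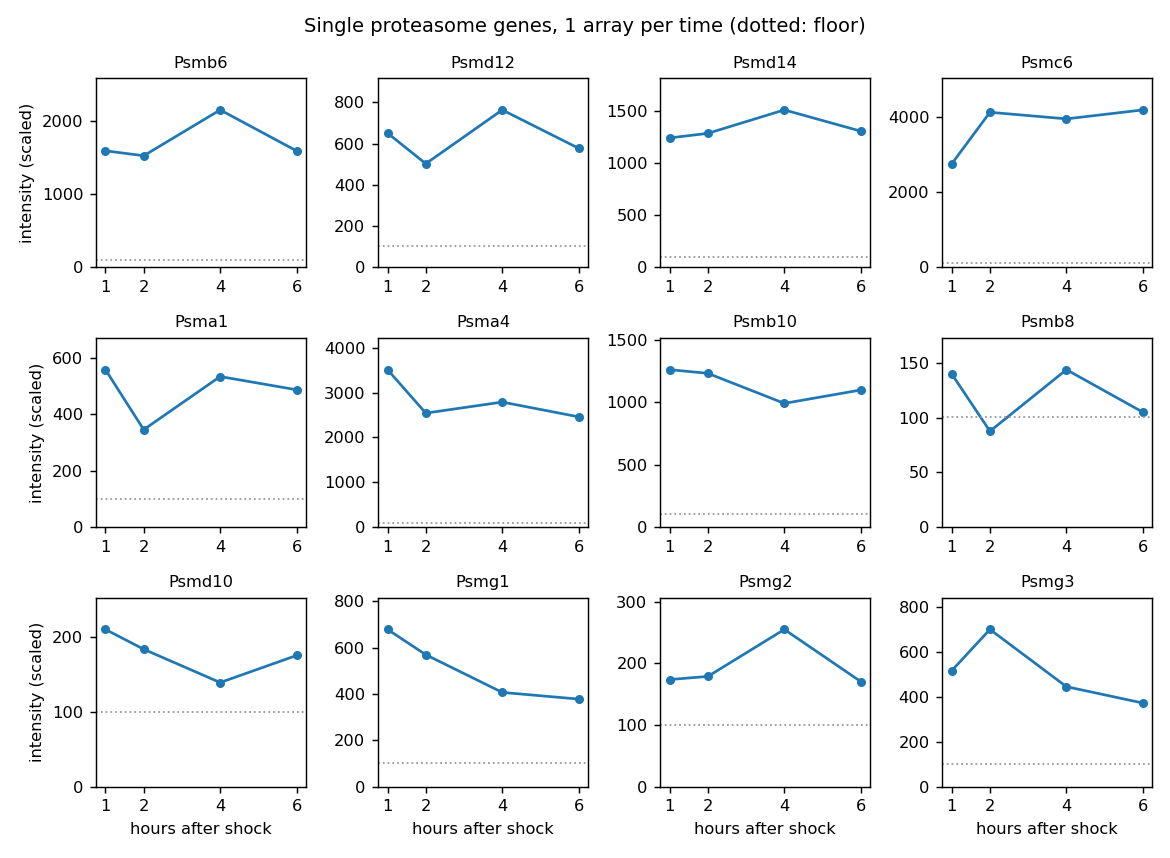
Scaled intensity (linear axis from 0) of 12 proteasome genes against hours after the last shock, 1 array per time, with the floor of 100.8 dotted. Psmb6, Psmd12, Psmd14 and Psmg2 peak at 4 h, Psmc6 is low at 1 h, Psma4 is high at 1 h, and Psmg1 is lower at each later time.

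Other genes of the pathway were taken from lists that do not belong to the rule. Of the partners and regulators of the proteasome, all 11 on the array were above the floor. At 4 h, 9 exceeded the mean of their other times (49.3% of all genes, median 0.07). As many were highest at 2 h as at 4 h, 4 of 11 each, against 29.2% and 22.5% of all genes. Akirin2, which guides proteasomes into the nucleus, had the widest range, at 3223, 3040, 4786 and 3990, highest at 4 h as Psmb6 was. The transcription factor Nfe2l2, which drives proteasome genes under oxidative stress, read 389, 380, 442 and 320. The thioredoxin-like cap partner Txnl1 read 988, 863, 913 and 754, and Zfand2a, a stress-induced partner of the cap, read 453, 542, 490 and 423, both lowest at 6 h. Nfe2l1, the factor that restores proteasome genes when the protease is inhibited, was lowest at 4 h, at 1974 against 2111 to 2232.

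Of 7 ubiquitin-handling genes on the array, 2 exceeded the mean of their other times at 4 h (49.3% of all genes; median -0.07). None was highest then (22.5%), while 4 were highest at 6 h (23.2% of all genes). Vcp, the segregase that extracts tagged proteins, read 4399, 4278, 3423 and 3957, lowest at 4 h. Its cofactor Ufd1 read 485, 676, 672 and 571, lowest at 1 h. The shuttle Ubqln1 read 2317, 2017, 2182 and 2549, and the deubiquitinase Uchl1 read 7040, 5961, 5683 and 5971, highest at 1 h.

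The genes of interferon signalling and antigen presentation were mostly dim. Of 15 on the array, 10 had a mean above the floor, and 7 of these 10 lay above the other times at 4 h (49.3% of all genes), at a median of 0.12, against -0.20 at 6 h. Pdia3 read 438, 248, 352 and 258, and the class I gene H2-D1 read 420, 292, 388 and 252, both highest at 1 h. Irf8, a factor of myeloid cells, was below the floor at 1 h and read 183, 143 and 134 later. Irf9 read 194, 193 and 225 at 1, 2 and 6 h and was below the floor at 4 h. The dim interferon-response genes Irf1, Ifit1, Ifit3 and Tap2 were below the floor on all arrays, as was Psmb9.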

How the data were processed

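The deposited values are linear intensities of 12488 probe sets, groups of short oligonucleotides that together read 1 transcript, on 4 arrays. The intensities had been brought to a common level before they were deposited, as their trimmed means show. Software and detection calls were not given in the sources used here. Each array was scaled again to a common trimmed mean (2% left out at each end) over probe sets other than the 66 controls, by factors of 0.999 to 1.001. A floor was set at 100.8, the 40th percentile, before taking log2. The intensities printed are scaled values before the floor.

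Of the probe sets, 10833 had 1 gene symbol in the platform's annotation and were used, 396 had several and 1193 none. All 58 member probe sets were found by gene identifier in the RefSeq table, and 0 symbols changed. A gene with several probe sets was represented by the brightest. Differences between times were taken within each probe set. Across probe sets, intensities were used only to describe levels, to sum markers and to choose the brightest. Genes with a mean above the floor (5670) were counted as above or below the mean of their other times, as highest or lowest, or as apart by at least 1.2-fold. Values on all arrays were given for the genes with the widest range of each class, those ranging at least 1.5-fold, the proteolytic and interferon-inducible subunits and those with several probe sets. Members and lists were chosen with earlier results of these data known. Recovery of known changes was checked on simulated arrays. Other scalings, floors, probe set choices and member choices, and the leaving out of each array, were tried. Software was NumPy 2.4.6 and pandas 2.3.3 under Python 3.11.15, with figures by matplotlib 3.10.9.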

Additional observations from a re-analysis of the deposited data

How the results depend on the processing

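The higher values at 4 h kept their direction under every alternative tried, from 0.09 to 0.15 in the median. From 24 to 35 were above the other times, and 16 to 25 were highest at 4 h. The 24 and 16 were of the 29 constitutive 26S subunits, the 35 were separate probe sets, and the 25 came without the 1 h array. The shares of all genes were not recomputed for these counts. With equal medians, which gave the 0.15, the median of all genes at 4 h also became 0.04. The count of constitutive 26S subunits above was 23 to 27, in alternatives chosen after the data were seen. With arrays scaled to equal medians, the difference of all genes between 2 h and 6 h shifted by 0.11, and with it the proteasome medians to -0.13 at 2 h, 0.031 at 6 h, 0.16 for 4 h minus 1 h, 0.083 for 6 h minus 1 h, 0.22 for 4 h minus 2 h and 0.11 for 6 h minus 2 h. The number above at 2 h became 11 and the number highest at 2 h became 2, or 9 after quantile normalization. Of the counts between early and late arrays, recomputed under the scalings after the data were seen, those with both later times above or below both earlier ones became 20 and 4 with equal medians.

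Counted over the constitutive 26S subunits alone, 9 were above at 1 h, 4 highest at 1 h and 10 above at 2 h. Leaving out 1 array gave 11 to 14 highest at 1 h, 6 to 12 at 2 h and 6 to 15 at 6 h, where a member can be highest on 1 of 3 arrays instead of 4, and medians at 6 h from -0.071 to 0.013 (without the 4 h array). The number of genes apart from each other array, 8 at 1.2-fold, was 26 at 1.1-fold, 5 at 1.3-fold, 0 at 1.5-fold and 14 after scaling to a common median. A gene was counted once for each time and direction. The 8 were among 40 genes above the floor on all arrays. Over all 5017 such genes, each single time and direction held 2.97% to 6.32% at 1.2-fold, where the members held 0 to 2 of 40. The 8 adds up all times and directions, so it cannot be set beside 1 of these shares. Of all genes, 232 and 218 were apart above and below at 1 h, and 306 and 317 at 2 h. At 4 h these were 149 and 239, and at 6 h 170 and 295. The shares of all genes under the other settings were not computed.

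Class medians at 4 h moved more. With plain probe sets alone the beta subunits stood at 0.14 and the assembly chaperones at -0.24; the chaperones were at -0.15 with each probe set on its own and -0.00039 as a mean over members. With the floor at the 60th percentile the interferon-inducible beta subunits stood at -0.27 and the activators at 0.012. Leaving out 1 array gave -0.027 to 0.13 and 0.012 to 0.15 for these, 0.091 to 0.17 for the ATPases, and -0.23 to 0.022 for the chaperones, whose sign turned without the 2 h array. At other times, the alpha subunits at 1 h reversed to 0.042 as a mean, the interferon-inducible beta subunits at 2 h to 0.15 with the higher floor, and the chaperones at 1 h to -0.088 without the 6 h array, in a range up to 0.31. The cause of these changes was not tested. All 123 single-gene values under other scalings moved by no more than the spread of that difference over all genes. None that lay at least 1.2-fold from the other times changed sign. For smaller differences the sign was not checked. Psmb4 had both later times below both earlier ones with the main scaling and above them with a common median. No paired analysis was possible because each time has 1 array. Pairs of times use no other array, so leaving one out does not apply. Dim probe sets, close to the floor, limit Psmb8 and the interferon list.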
